A study of Mus musculus with 24 samples.

Results

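The genes described here build the T cell receptor complex or define T cells: Cd3d, Cd3e, Cd3g, Cd4, Cd8a, Cd28, Lck, Zap70 and Gata3. They were taken because Nur77, the orphan nuclear receptor encoded by Nr4a1, is induced when the T cell receptor signals. A gene entered if a probe of the array carried its symbol, values above 12 in absolute size were treated as missing, and the probes of a symbol were averaged. This left 4 of the 9 genes, Cd3d, Cd3g, Cd8a and Gata3, on 6 of the 20205 probes. The array's annotation names 9834 genes in all. No probe carries the symbol or gene number of Cd3e, Cd4, Cd28, Lck or Zap70, and 6309 probes carry no symbol, so those 5 genes were not analysed here.

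In each of 6 organs, RNA pooled from Nur77-/- mice was hybridised against RNA pooled from Nur77+/+ wild-type mice on 4 two-colour arrays, 24 in all. The organs were spleen, lung, testis, skeletal muscle, heart and brown adipose tissue. The mutant pool was in Cy5 on replicates 1 and 2 of an organ and in Cy3 on replicates 3 and 4. Pools of 7 mice are stated for both genotypes, although the labelling protocol speaks of 6 control animals. The labels name no age, sex or strain. Since each organ has 1 mutant and 1 wild-type pool, the 4 arrays show the error of hybridisation and labelling, and their p-values leave out the spread between mice. The wild-type channel of heart replicate 2 is labelled as skeletal muscle.

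The T cell receptor reads peptide antigens, but its chains have no signalling tails of their own. The CD3 gamma, delta and epsilon chains and the zeta chain carry the signal inward. The coreceptors CD4 and CD8 bring the kinase Lck to the complex, Lck phosphorylates the CD3 tails, and ZAP-70 docks there and passes the signal on, with CD28 giving costimulation. GATA3 is a transcription factor needed for early T cell development and for the T helper 2 fate, and it is also active in several epithelia and in precursors of fat cells. Nr4a1 is an immediate early gene of this signal and is known for its role in the deletion of self-reactive thymocytes. The spleen is rich in T cells, whereas muscle, heart, testis and brown fat normally hold few.

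Cd3g and Cd3d lie next to each other on chromosome 9 and are transcribed away from each other, with 1355 bases between the starts that RefSeq's promoter table gives. In build GRCm38.p6, Cd3g spans chr9:44969572-44980431 on the minus strand and Cd3d spans chr9:44981769-44987052 on the plus strand. Cd8a lies at chr6:71373427-71379171 and Gata3 at chr2:9857078-9887953. The 250 bases before each start are shown because Nur77 is a DNA-binding factor and because Cd3g and Cd3d share a locus. For Gata3 the start in that table is 9878600, which lies inside the span of the gene, so its window does not precede the whole gene. The Cd3d start, 44981786, also lies inside the gene's span, so the last bases of its window are within the gene. The sequences are RefSeq's, printed 5′ to 3′ on the gene's strand. Capitals mark CANNTG, an E-box, and GATAA, a core bound by GATA factors, on either strand, so that GATAA on the opposite strand reads TTATC.
Cd3g, chr9:44980432-44980681, minus strand: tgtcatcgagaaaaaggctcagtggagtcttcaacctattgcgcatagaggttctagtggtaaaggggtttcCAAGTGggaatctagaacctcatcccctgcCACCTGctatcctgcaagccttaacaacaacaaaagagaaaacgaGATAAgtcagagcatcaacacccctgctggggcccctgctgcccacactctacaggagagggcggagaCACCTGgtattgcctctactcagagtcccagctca
Cd3d, chr9:44981536-44981785, plus strand: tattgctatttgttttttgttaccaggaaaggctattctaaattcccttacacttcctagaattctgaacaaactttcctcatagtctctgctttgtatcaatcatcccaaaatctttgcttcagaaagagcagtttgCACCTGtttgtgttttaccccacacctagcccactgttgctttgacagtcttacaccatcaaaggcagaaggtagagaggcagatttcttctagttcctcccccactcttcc
Cd8a, chr6:71373177-71373426, plus strand: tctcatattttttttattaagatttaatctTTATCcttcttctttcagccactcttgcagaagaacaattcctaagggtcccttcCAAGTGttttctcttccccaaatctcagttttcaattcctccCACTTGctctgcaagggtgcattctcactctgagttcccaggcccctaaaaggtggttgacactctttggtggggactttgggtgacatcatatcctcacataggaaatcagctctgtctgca
Gata3, chr2:9878601-9878850, minus strand: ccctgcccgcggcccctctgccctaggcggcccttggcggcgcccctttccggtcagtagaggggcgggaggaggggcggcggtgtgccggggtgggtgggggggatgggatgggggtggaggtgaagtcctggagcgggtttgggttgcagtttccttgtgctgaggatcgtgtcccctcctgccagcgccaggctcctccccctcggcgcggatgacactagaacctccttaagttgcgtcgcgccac
The Nur77 monomer site AAAGGTCA was not in any of the 4 windows on either strand, and neither was AGGTCA, which AAAGGTCA contains. Of 32851 mouse promoter windows of this length, 1.34% hold AAAGGTCA and 14% hold AGGTCA. Cd3g had 3 E-boxes and 1 GATAA, Cd8a had 2 and 1, Cd3d had 1 E-box, and Gata3 had no marked motif. E-boxes occur in 66.2% of all windows and GATAA in 22.6%, so these matches are frequent ones and only describe the letters.

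The targeted gene was checked first. The Nr4a1 ratio was below 0 on 21 of the 22 arrays with a value within the limit of 12. On testis replicate 1, with the mutant pool in Cy5, it read 17.13 and was left out by that limit. In spleen the Nr4a1 log2 ratios were -0.87, -0.74, -0.93 and -0.45, and in lung they were -0.16, -0.16, -0.93 and -0.29. In testis they were -0.49, -0.19 and 0.08 on 3 arrays, and in skeletal muscle -2.54, -2.10 and -0.67 on 3. In heart they were -0.91, -0.61, -0.44 and -0.73, and in brown adipose tissue -1.04, -1.27, -1.19 and -1.04. Apart from 1 testis array, the ratios within the limit of 12 are negative in both dye orientations. This makes mutant over wild type the likely direction of the deposited ratios. The direction itself is not stated in the sources used here. Over all rows, with the probes of a symbol averaged, the median rank correlation between arrays within an organ was -0.04 in opposite dyes (24 pairs). It was 0.10 in the same dye (12 pairs), so this correlation does not show the direction. Some genes with large differences were below 0 on 4 of 4 arrays, and so in both dye orientations. They include the pancreas genes Ctrl (-6.23) and Zg16 (-5.24) in spleen and the muscle gene Myoz1 (-1.96) in lung. Other rows, such as Cd8a, separated by dye. Since the direction is not stated, the T cell ratios were also fitted with the arrays of the mutant in Cy3 turned in sign. Those values are given where a ratio moves by over 1 standard error. With the sign turned, 903 of all rows had a limma adjusted p under 0.05 in skeletal muscle, against 669 as deposited. Lung had 16 against 10, heart 3 against 0 and spleen 161 against 172. Testis and brown adipose tissue had 0 either way. The counts of rows called do not show the direction either. The position of the Nr4a1 probe relative to the deleted part is not known. Arrays held between 13396 and 19455 values. The median standard deviation between the 4 arrays of an organ was 1.09 log2 units in spleen, 0.797 in lung and 1.19 in skeletal muscle, and lower in the other organs. Ratios carry no expression level, so neither the amount of T cell RNA nor the identity of an organ can be read from them, and fewer T cells cannot be told apart from less RNA per T cell.

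In spleen, the lymphoid organ of the series, no T cell gene passed the test. Each organ's ratio was estimated in 1 limma model over all 24 arrays with a dye term, and p-values were adjusted over all rows by Benjamini-Hochberg. The model gives each gene 1 residual spread for all organs. Its standard errors can thus be too wide where arrays spread little, as in brown adipose tissue. They can be too narrow where arrays spread most, as in skeletal muscle. Nr4a1, the targeted gene, passed this test in skeletal muscle alone (-1.73, limma adjusted p = 0.0022). It did not pass in spleen (-0.75, limma adjusted p = 0.167) or lung (-0.38, 0.932). Nor did it pass in brown adipose tissue, at -1.14 with 4 of 4 arrays below 0. A gene that does not pass can therefore still differ. In spleen 0 of the 4 genes had an adjusted p under 0.05, where 1.53% of 11217 tested rows did, and 0 of the 4 had an unadjusted p under 0.05, where 15.4% of rows did. None of the 4 had 1 sign on all spleen arrays, as 19.8% of rows had. The median of the 4 was -0.24, against -0.07 over all rows.

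Cd3d, the CD3 delta chain, had spleen ratios of 0.19, -0.04, 0.35 and -0.35 on replicates 1 to 4. Both dye orientations hold 1 array above 0 and 1 below, and the estimate was 0.03 ± 0.31 (SE, n = 4 arrays, 95% interval -0.60 to 0.67, limma adjusted p = 0.978). Cd3g, the gamma chain, had -0.10, -1.50, 0.58 and -0.86. Its estimate was -0.47 ± 0.51 (95% interval -1.57 to 0.63, limma adjusted p = 0.732), with 3 of 4 arrays below 0. Neither chain can be called changed or unchanged beyond these bounds: the interval of Cd3d covers less than 1 log2 unit either way, and that of Cd3g reaches beyond 1 on the low side.

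Cd8a, the alpha chain of the CD8 coreceptor of cytotoxic T cells, had spleen ratios of -1.53, -0.22, 0.61 and 0.17. Replicates 1 and 2, which had the mutant in Cy5, lie below 0, and replicates 3 and 4, which had it in Cy3, above. The estimate was -0.24 ± 0.79 (SE, n = 4 arrays, 95% interval -1.89 to 1.40, limma adjusted p = 0.931). Gata3 split the same way in spleen, with -0.41 and -1.60 in Cy5 against 0.55 and 0.54 in Cy3. Its estimate was -0.23 ± 0.32 (95% interval -0.91 to 0.44, limma adjusted p = 0.800).

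Spleen carried marked differences in other tissues' genes. Of 11 exocrine pancreas genes tested, 9 were lower in the Nur77-/- pool, where 1.53% of all rows passed in either direction. That list was chosen with earlier results of these data known, so its count is no independent evidence. Its median was -4.26, with Cela2a, a pancreatic elastase, at -6.68. The 1 gene of the list above 0 was Cpb1, a carboxypeptidase named after its value was seen, at 1.89 on 3 arrays (limma adjusted p = 0.130). Of 5 fast skeletal muscle genes tested, 1 passed, the troponin Tnni2 at -1.78 on 3 arrays (limma adjusted p = 0.0255), while 3 of the 5 were above 0. Of 6 B cell genes tested, 0 passed the test and the median was 0.02. The part of the pancreas and muscle genes in the T cell ratios was not tested. When spleen was set against the mean of the other 5 organs, 0 of the 3 genes measured everywhere passed, where 0.794% of 7553 rows did and 12.4% had an unadjusted p under 0.05. That limma contrast was 0.13 for Cd3d (95% interval -0.57 to 0.83), -0.05 for Cd8a (-1.85 to 1.75) and -0.41 for Gata3 (-1.16 to 0.33), the smallest unadjusted p being 0.26.

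**Figure D1:**
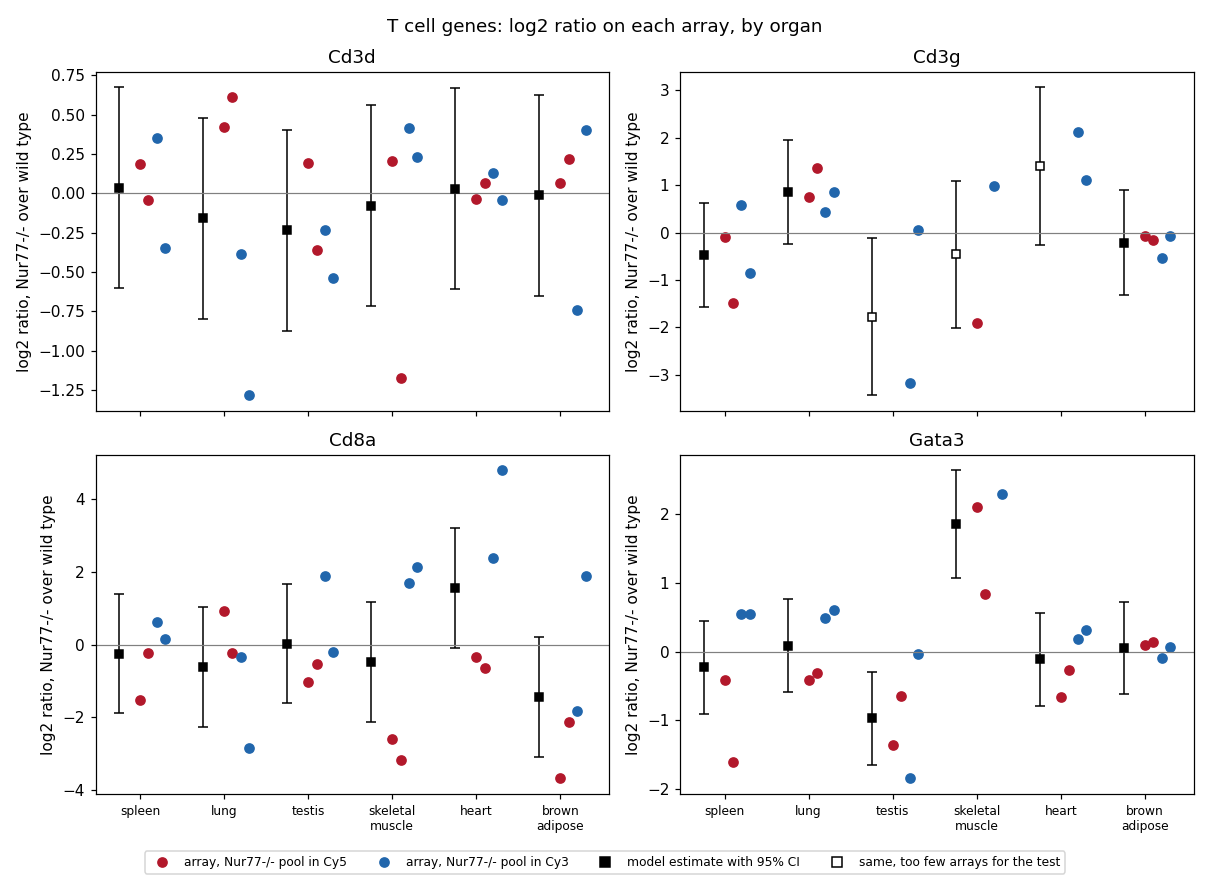
Log2 ratio of the Nur77-/- pool over the wild-type pool (vertical axis, a scale of its own in each panel) for Cd3d, Cd3g, Cd8a and Gata3 in 6 organs (horizontal axis). Points are arrays, red with the mutant pool in Cy5 and blue in Cy3, and squares are model estimates with 95% intervals, open where fewer than 3 arrays measured the gene. Gata3 in skeletal muscle stands at 1.85, and the Cd8a points separate by dye in most organs.

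In lung, none of the T cell genes passed the test either. By limma 0 of 4 had an adjusted p under 0.05, against 0.0809% of 12365 rows, and 0 had an unadjusted p under 0.05, against 6.63%. Cd3g was the gene with 1 sign throughout: 0.75, 1.37, 0.43 and 0.86 on replicates 1 to 4. The estimate was 0.85 ± 0.51 (SE, n = 4 arrays, 95% interval -0.25 to 1.95, unadjusted p = 0.118, limma adjusted p = 0.897). So 1 of the 4 genes had 1 sign on every array in lung, and 17.3% of all rows did.

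Cd3d, its neighbour on chromosome 9, divided by dye in lung. Its ratios were 0.42 and 0.61 with the mutant pool in Cy5, against -0.39 and -1.28 with it in Cy3, and the estimate was -0.16 ± 0.31 (95% interval -0.80 to 0.48, limma adjusted p = 0.999). Cd8a read 0.93, -0.22, -0.34 and -2.83, with an estimate of -0.62 ± 0.79 (95% interval -2.26 to 1.03). The lung value of Cd8a was 0.45 when the replicate 4 arrays of all organs were left out, and 0.97 with the Cy3 arrays turned in sign. Gata3 again split by dye, at -0.42 and -0.32 in Cy5 against 0.48 and 0.60 in Cy3, with an estimate of 0.09 ± 0.32 (95% interval -0.59 to 0.76). Of 9 fast skeletal muscle genes tested, 3 were lower in the mutant lung pool, where 0.0809% of all rows passed in either direction. This list too was chosen with earlier results of these data known, and its median was -1.47. The 3 genes were the troponins Tnnc2 at -3.46 and Tnni2 at -1.99, and the sarcomere protein Myoz1 at -1.96. The list was not of 1 sign: 6 genes were below 0 and 3 above, among them the myosin light chain Mylpf, named after its value was seen, at 2.19 on 3 arrays (limma adjusted p = 0.211). Their part in the T cell ratios was not tested.

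Gata3 in skeletal muscle was the 1 ratio of a T cell gene that passed the test, and it was higher in the Nur77-/- pool. The 3 arrays that measured it read 2.10 on replicate 1, 0.83 on replicate 2 and 2.29 on replicate 4, all above 0 and in both dye orientations. Replicate 3 gave no value. The estimate was 1.85 ± 0.38 (SE, n = 3 arrays, 95% interval 1.06 to 2.63, limma adjusted p = 0.00592), a 3.60-fold difference. Relative to the median of each array, the 3 ratios were 2.55, 1.64 and 1.61. It ranked 189 by p among 11974 rows tested in that organ, and 95% of rows there had a ratio below 1.32.

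Skeletal muscle was also the organ with the most rows called. 1 of 3 T cell genes passed there, in the higher direction, where 3.36% of rows passed in that direction and 5.59% in either. 1 of the 3 also had an unadjusted p under 0.05 and 1 sign on every array with a value, against 20.2% and 22.6% of rows. The arrays of this organ spread the most, and the standard deviation of the 3 Gata3 ratios was 0.794, above the 0.645 that the model pooled over organs. The call ended under several other settings. Without skeletal muscle replicate 1 the ratio was 1.56 (limma adjusted p = 0.0581), with array weights it was 1.99 (0.217), with arrays centred and scaled to 1 spread 1.03 (0.580), and fitted on muscle arrays alone 1.88 (0.549). In that last fit 0 of all muscle rows passed, so the loss of the call there is not particular to Gata3. If the deposited ratios of the arrays with the mutant in Cy3 ran the other way, the Gata3 ratio would be 0.21 (0.868). The ratio was above 0 in all 18 alternatives run and passed the test in 12 of them. Several of these 12 left the Gata3 muscle values as they were, so they could hardly end the call. They kept the values above the limit, dropped the filter or kept probes as rows of their own (1.85 each). Others left out replicate 3 of all organs (1.88) or heart replicate 2 (1.85).

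**Figure D2:**
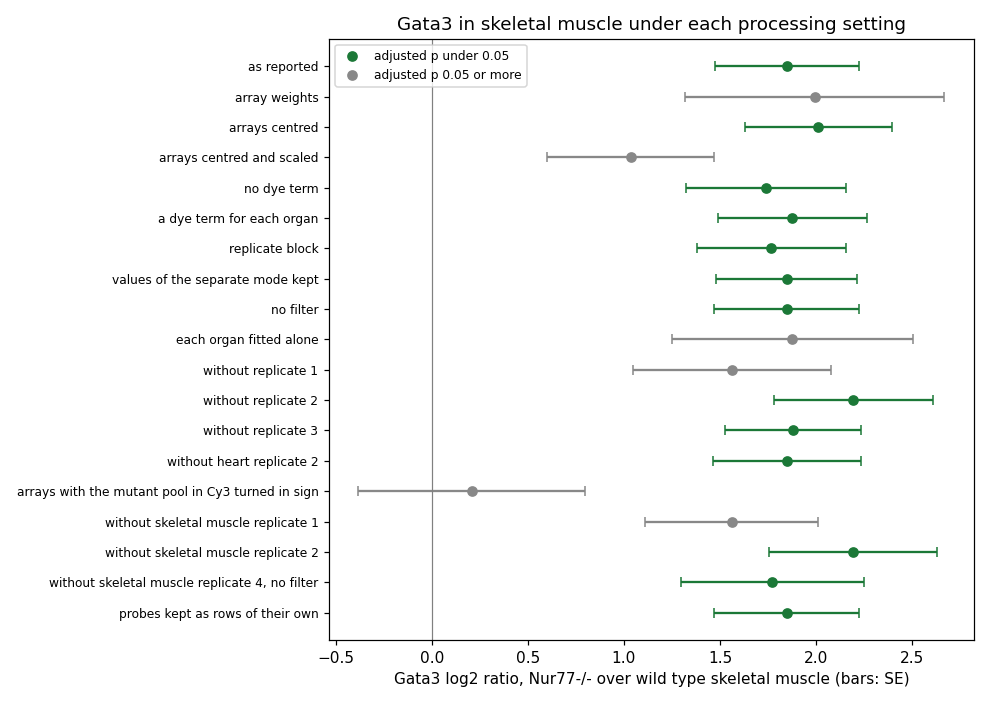
Log2 ratio of Gata3 in skeletal muscle, Nur77-/- over wild type (horizontal axis), under the main model and each alternative (rows), with standard error. Green points have an adjusted p under 0.05 and grey points do not, and all points lie above 0, between 0.21 and 2.19.

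The other muscle ratios of T cell genes did not pass. Cd3d read 0.20, -1.17, 0.42 and 0.23, so that 3 arrays lay above 0 and 1 far below, and the estimate was -0.08 ± 0.31 (95% interval -0.72 to 0.56, limma adjusted p = 0.917). Cd8a separated by dye, at -2.58 and -3.18 with the mutant pool in Cy5 against 1.70 and 2.12 in Cy3. Its estimate was -0.48 ± 0.79 (95% interval -2.13 to 1.16, limma adjusted p = 0.790). Cd3g had 2 values, -1.91 and 0.99, too few for the test.

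In testis no T cell gene passed, and Gata3 had ratios below 0 throughout. They were -1.35, -0.65, -1.84 and -0.04, with replicate 4 close to 0. The estimate was -0.97 ± 0.32 (SE, n = 4 arrays, 95% interval -1.64 to -0.29). The unadjusted p was 0.00724 and the limma adjusted p was 1, so it did not pass. With the Cy3 arrays turned in sign the testis ratio was -0.03. In testis 0 of 3 genes had an adjusted p under 0.05 (0% of 13564 rows) and 1 had an unadjusted p under 0.05, against 3.63% of rows. 1 of the 3 had 1 sign on every array, against 16.7% of rows.

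The remaining testis ratios straddled 0. Cd3d read 0.19, -0.36, -0.23 and -0.54, with an estimate of -0.23 (95% interval -0.87 to 0.40), and Cd8a read -1.03, -0.54, 1.87 and -0.19, with an estimate of 0.03 (-1.61 to 1.67). Cd3g had 2 values there, -3.17 and 0.05, both with the mutant pool in Cy3, and was not tested.

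In heart and brown adipose tissue 0 T cell genes passed by limma, of 3 and 4 tested, as did 0% of all rows in either organ. With array weights, 41 of all rows passed in heart and 8 in brown adipose tissue. In the main model no T cell gene had an unadjusted p under 0.05, against 2.05% of rows in heart and 0.67% in brown adipose tissue. In heart none of the 3 had 1 sign throughout, as 16.4% of rows had. Cd3d kept close to 0 in heart, at -0.04, 0.07, 0.13 and -0.04, with an estimate of 0.03 (95% interval -0.61 to 0.67). In brown adipose tissue it read 0.07, 0.22, -0.74 and 0.40, with an estimate of -0.01 (-0.65 to 0.62). Gata3 read -0.66 and -0.27 in Cy5 against 0.17 and 0.31 in Cy3 in heart, and between -0.10 and 0.14 in brown adipose tissue.

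Cd3g was below 0 on 4 of 4 arrays of brown adipose tissue, at -0.08, -0.15, -0.53 and -0.08. The estimate was -0.21 ± 0.51 (95% interval -1.31 to 0.89). That error uses the spread pooled over organs, while the 4 arrays here had a standard deviation of 0.22. So 1 of 4 genes had 1 sign there, against 14.4% of rows. In heart Cd3g had 2 values, 2.13 and 1.10, both with the mutant pool in Cy3, and was not tested.

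Cd8a gave the widest ratios in these organs. In heart it read -0.34 and -0.65 in Cy5, against 2.39 and 4.78 in Cy3, and in brown adipose tissue -3.67 and -2.12 in Cy5, against -1.83 and 1.89 in Cy3. The estimates were 1.55 ± 0.79 in heart (95% interval -0.10 to 3.19, unadjusted p = 0.0636, limma adjusted p = 1) and -1.43 ± 0.79 in brown adipose tissue (-3.07 to 0.21, unadjusted p = 0.0843). Without heart replicate 2, whose wild-type label names another organ, the heart estimates were 1.95 for Cd8a (limma adjusted p = 1), 0.05 for Cd3d and -0.17 for Gata3.

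The sign of Cd8a went with the dye on most arrays. Over the 6 organs it was above 0 on 1 of 12 arrays when the mutant was in Cy5, and on 8 of 12 when it was in Cy3. The dye term of the model, Cy5 minus Cy3, was -2.13 ± 0.64 (unadjusted p = 0.00353, limma adjusted p = 0.148). For Gata3 the counts were 4 of 12 and 8 of 11, with a dye term of -0.65 ± 0.27 (unadjusted p = 0.0278, limma adjusted p = 0.308). Cd3d and Cd3g had dye terms of 0.20 and -0.43, with unadjusted p of 0.433 and 0.451. With the Cy3 arrays turned in sign the dye term of Cd8a was -0.40 (unadjusted p = 0.496) and that of Gata3 0.03, and with the Cd8a values above the limit of 12 kept, that of Cd8a was -0.75 (unadjusted p = 0.454). After adjustment 0 of the 4 dye terms passed, where 0.565% of 16103 rows did, and 2 of the 4 had an unadjusted p under 0.05, against 13.3% of rows.

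The 3 Cd8a probes did not behave alike. Probe 6059 gave values on 12 arrays, below 0 on all 9 with the mutant pool in Cy5 and above 0 on all 3 with it in Cy3, from -4.72 to 4.78. Probe 6484 was above 0 on 3 of 9 arrays in Cy5 and 4 of 7 in Cy3. Probe 6989 was above 0 on 4 of 7 in Cy5 and 6 of 10 in Cy3. On 17 arrays with 2 or 3 of the probes, they shared a sign on 11 and had both signs on 6, and their median range on an array was 1.88 log2 units.

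In spleen, probe 6989 alone was above 0 on all 4 arrays, at 0.83, 2.83, 0.61 and 1.25. As a row of its own its ratio was 1.38 ± 0.67 (SE, n = 4 arrays, limma adjusted p = 0.332), which did not pass. The Cd8a average therefore depends on which probes gave a value on an array, and 7 of the 24 arrays had only 1. The residual standard deviation of Cd8a was 1.58, larger than that of 84.1% of rows, against 11.6% for Cd3d and 13.8% for Gata3.

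**Figure D3:**
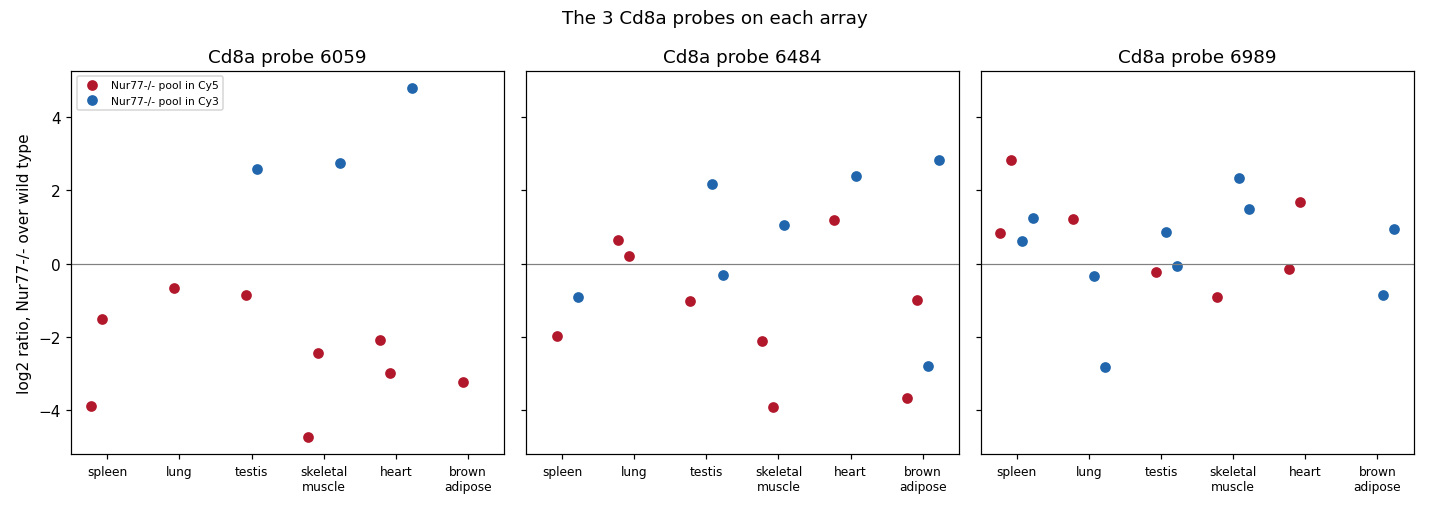
Log2 ratio, Nur77-/- over wild type (vertical axis), of each of the 3 Cd8a probes (panels) on each array by organ (horizontal axis), red with the mutant pool in Cy5 and blue in Cy3. All red points of probe 6059 lie below 0 and all its blue points above, from -4.72 to 4.78, while the other probes mix both colours on both sides of 0.

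Across the organs the arrays of each T cell gene divided between both signs. Cd3d was above 0 on 13 of 24 arrays, Cd3g on 9 of 18, Cd8a on 9 of 24 and Gata3 on 12 of 23. Ordered by its ratio, Gata3 ran through testis at -0.97, spleen at -0.23, heart at -0.11, brown adipose tissue at 0.05, lung at 0.09 and skeletal muscle at 1.85. The standard error of each of the middle 4 was 0.32, about the distance between the outer ones of them. A test of the difference between organs gave Gata3 an unadjusted p of 0.000859 and a limma adjusted p of 0.0636, so it did not pass. For Cd8a the limma adjusted p of that F test was 0.788, and for Cd3d the unadjusted p was already 0.985, so 0 of 3 genes passed against 1.07% of 7553 rows, and 1 of 3 had an unadjusted p under 0.05 against 10.1% of rows. The order depends on the direction of the ratios. With the Cy3 arrays turned in sign, Gata3 ran through spleen at -0.78, lung at -0.45, heart at -0.36, testis at -0.03, brown adipose tissue at 0.07 and skeletal muscle at 0.21, and its F test had an unadjusted p of 0.777. Turned in the same way, Cd3d was at 0.68 in lung (unadjusted p = 0.0191, limma adjusted p = 0.406), -0.40 in skeletal muscle and 0.15 in testis, and Cd3g was at 0.21 in lung. Cd8a was then at -2.04 in heart (unadjusted p = 0.00883, limma adjusted p = 0.851), -0.81 in testis and -2.39 in skeletal muscle, where it passed (limma adjusted p = 0.0435).

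Averaged over the 6 organs, 0 of 3 genes passed by limma, as did 0% of rows, and 0 had an unadjusted p under 0.05, against 5.71% of rows. The means were -0.07 ± 0.11 for Cd3d, -0.20 ± 0.33 for Cd8a and 0.12 ± 0.32 for Gata3 (SE, n = 6 organs). The genes most like each of them were those with the smallest mean absolute difference over 6 organs among 5349 genes. For Cd3d they were Map6 and Atp6v1a (both 0.06, where the median gene differed by 0.35), for Cd8a Cby1 and Pfn1 (0.42 and 0.43, median 0.83). For Gata3 they were Rhpn1 and Slc2a2, with differences of 0.21 and 0.22 against a median of 0.70. Rhpn1 stood at 1.95 in skeletal muscle and 0.01 in testis, and Slc2a2, a glucose transporter, at 1.48 in skeletal muscle and -1.30 in testis.

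The wider T cell programme was read from 60 other genes of the receptor pathway, costimulation, homing and T cell transcription, of which 29 were on the array. In spleen 0 of 25 tested passed, in lung 0 of 26, in testis 0 of 25, in heart 0 of 27 and in brown adipose tissue 0 of 28. Over all rows 1.53% passed in spleen, 0.0809% in lung and 0% in the other 3. By limma with unadjusted p under 0.05 the counts were 2 in spleen, against 15.4% of all rows, 1 in lung, against 6.63%, and 3 in testis, against 3.63%. They were 0 in heart, against 2.05%, and 0 in brown adipose tissue, against 0.67%. The medians were -0.07 in spleen, -0.17 in lung, 0.04 in testis, -0.07 in skeletal muscle, 0.03 in heart and -0.04 in brown adipose tissue. Beside them stand medians over all rows of -0.07, -0.01, 0.02, -0.16, -0.02 and -0.07 in the same organs.

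In skeletal muscle 1 of 21 passed, and it was lower, where 5.59% of all rows passed and 2.23% were lower. At an unadjusted p under 0.05 there were 2 of 21, against 20.2% of rows. The 1 call is about the share found over all rows and is not a result about the list. This was Ccr7, the chemokine receptor that guides naive T cells into lymph nodes, at -2.85 ± 0.44 (SE, n = 3 arrays, all below 0, limma adjusted p = 0.000643). Ccr7 passed in 16 of the 17 alternatives that tested it. The exception was the fit on the muscle arrays alone, at -2.36 (limma adjusted p = 0.549), where 0 of all muscle rows passed. Some of the 16 left the Ccr7 muscle values as they were, such as dropping the filter (-2.85) or heart replicate 2 (-2.84). Those could hardly end the call. Of the 21 genes, 8 were above 0 and 13 below, while Gata3 was above 0.

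Closest in function to the CD3 genes and Cd8a are Cd247, the zeta chain, and Cd8b1, the CD8 beta chain. Both are named for that role after their values were seen. In spleen Cd247 was at 0.72 ± 0.50 (limma adjusted p = 0.526) and Cd8b1 at 0.42 ± 0.62, and in lung they were at -0.37 and -0.08.

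**Figure D4:**
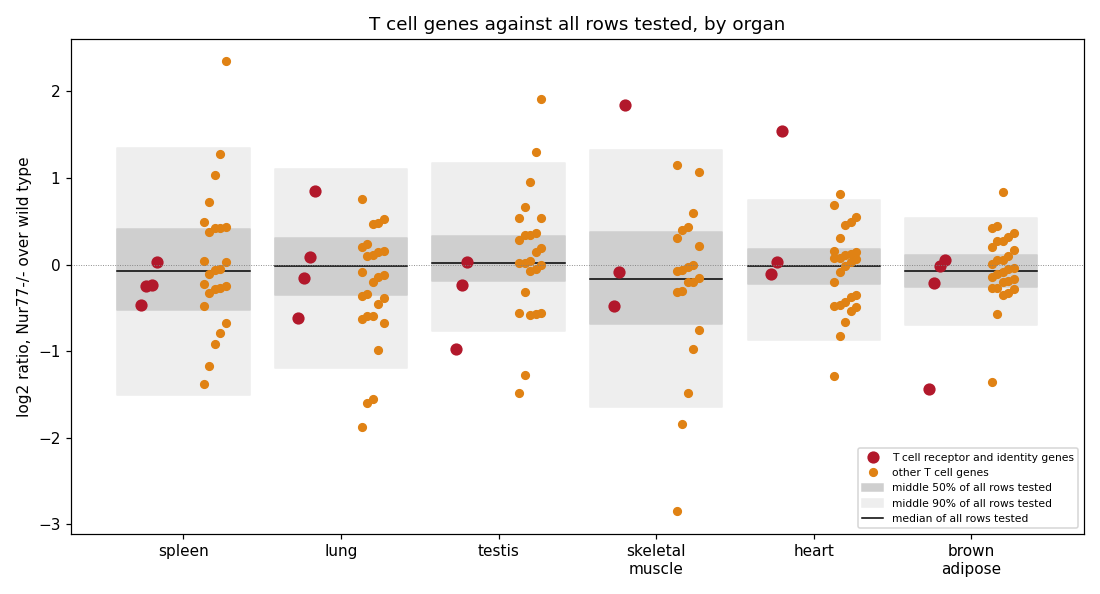
Log2 ratio, Nur77-/- over wild type (vertical axis), of the T cell receptor and identity genes and of the other T cell genes by organ (horizontal axis), red and orange points standing for genes. Grey bands hold the middle 50% and 90% of all rows tested and black lines their median. In skeletal muscle Gata3, at 1.85, lies above the wider band and Ccr7, at -2.85, below it.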

How the data were processed

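Each array gave 1 log2 ratio per probe, as the authors deposited it. That the scale is log2 was read from the values. The direction, mutant over wild type, is likely but not stated, while for background correction, normalization and centring the sources used here name no method. RNA (20 µg) was labelled with Cy3 or Cy5, per the labels' protocols. Of 392774 deposited values, 4874 (1.24%) had absolute sizes of 15.7 or more, with none between 9.94 and 15.7, and were left out with a limit of 12. Probes of a symbol were averaged and the others kept, which gave 16148 rows. limma 3.58.1 in R 4.3.3 fitted 6 organ terms and 1 dye term to 24 arrays. A row was tested in an organ if at least 3 of 4 arrays and both dye orientations gave a value. Adjusted p-values are Benjamini-Hochberg over all rows of an organ, with a threshold of 0.05. The fit was run on simulated data that gave each row the same spread in every organ. That run cannot test the error rate where organs differ in spread, as they do here.

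Named are the 9 genes and Nr4a1, other T cell genes past the test (at most 6 an organ), up to 3 genes of the other marker lists past the test, and the 2 genes most like each measured one. The genes and lists were chosen with earlier results of these data known. The other lists hold markers of B cells, natural killer cells (2 on the array), myeloid cells (6), red cell precursors (3), exocrine pancreas and fast muscle. None of the B, natural killer, myeloid or red cell genes passed in an organ by limma. The number of arrays limits the precision. Alternatives changed weights, centring, scaling, dye terms, filters, probes, sign and the arrays used.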

Additional observations from a re-analysis of the deposited data

Results flagged for a closer look

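Cd3d in skeletal muscle had 1 array, replicate 2, at -1.173, far from the other 3. Cd3g in brown adipose tissue had replicate 3 at -0.532, far from the other 3, which lay between -0.15 and -0.08. Groups of 4 arrays were examined in 20 cases and 2 stood out in this way, where chance gives about 1 in 20.

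Cd3g was above 0 on every lung array and below 0 on every array of brown adipose tissue, a difference of 1.06 log2 units, lung minus brown adipose tissue. That difference was not tested, and neither ratio passed its own test. Gata3 was above 0 on every skeletal muscle array with a value and below 0 on every testis array, a difference of 2.82, skeletal muscle minus testis. With the arrays of the mutant in Cy3 turned in sign, the same ratios were 0.21 and -0.03. This pair was not tested by itself, and the F test over all organs had a limma adjusted p of 0.0636.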

How the results depend on the processing

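The call of Gata3 in skeletal muscle ended with array weights (1.99, limma adjusted p = 0.217), with arrays centred and scaled (1.03, 0.580), with each organ fitted alone (1.88, 0.549) and with the arrays of the mutant pool in Cy3 turned in sign (0.21, 0.868), and the cause was not tested. With each organ fitted alone, 0 of all rows passed in any organ, so that loss is not particular to Gata3. With 1 replicate number left out of all organs the Gata3 ratio in muscle lay between 1.56 and 2.19 (limma adjusted p 0.0126 to 0.146), without replicate 4 it could not be tested, and without skeletal muscle replicate 1, an alternative chosen after seeing the data, it was 1.56 (0.0581). The number of T cell genes called in muscle was 0 with array weights, with centring and scaling, with each organ alone, without skeletal muscle replicate 1 and with complete rows only, which leave Gata3 out. It was between 0 and 1 with a replicate number left out. With the sign turned it was 1, but the gene called was Cd8a, at -2.39 (limma adjusted p = 0.0435). With a replicate block Gata3 was at 1.77 (limma adjusted p = 0.0132). After the organ and dye terms were removed, arrays of the same number correlated at a median of -0.08 over 60 pairs. Such arrays share a dye, so removing the dye term itself lowers this value. It cannot show whether the numbers pair the arrays. The block changed no call of a T cell gene. The other 20 ratios gave 394 values under the alternatives, of which the Cd8a value above was the 1 past the test, 361 kept their sign and 33 turned it without a call. With the values above the limit of 12 kept, Cd8a was at -1.13 in heart and 1.48 in testis. The count of all rows called ran from 0 to 459 in spleen, 0 to 37 in lung, 0 to 9 in testis, 0 to 948 in skeletal muscle, 0 to 41 in heart and 0 to 8 in brown adipose tissue.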

Other observations

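Of the values left out by the limit of 12, 2 belong to Cd8a. Probe 6484 read 16.88 on testis replicate 2, with the mutant pool in Cy5, and probe 6989 read -16.62 on heart replicate 4, with it in Cy3. All 4874 such values in the table are positive with the mutant in Cy5 and negative with it in Cy3. No such value occurred for Cd3d, Cd3g or Gata3. Nr4a1 had 1, at 17.13 on testis replicate 1.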
